A study of Mus musculus with 9 samples.

Results

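The genes described here encode the factors that start and extend protein synthesis on the ribosome. They were chosen by symbol alone, as every row of the count table that begins with Eif or Eef and a digit, leaving out the eIF2alpha kinases (Eif2ak1 to Eif2ak4). This gave 57 of the 13890 genes listed, and all 57 passed the filter on low counts. The rule also takes some genes whose products are not factors themselves, among them the kinase Eef2k, the methyltransferase Eef2kmt and the repressors of eIF4E.

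RNA was sequenced from the hearts of 9 male mice of the immunodeficient NSG strain, in which human cells can grow. All were 8 weeks old at surgery, and the hearts were taken about 3 weeks later. There were 3 groups of 3 animals. The S group (label Sham, animals 2, 3 and 5) underwent the operation without tumour cells. The T group (label splenic HCT116, animals 11, 12 and 15) received HCT116 cells, a human colorectal cancer line, in the spleen, from where they seed the liver. The A + T group (label splenic HCT116+ACVR2B/Fc, animals 20, 21 and 22) received the same cells and, in separate injections, ACVR2B/Fc. ACVR2B/Fc is a soluble activin receptor type 2B fused to an antibody Fc fragment that traps myostatin, activins and their relatives. Per the study's methods it was given weekly into the peritoneum, while sham controls and untreated tumour hosts received saline. By these labels, the agent was given only to tumour hosts among the groups compared. No library analysed here was labelled as a sham mouse given it.

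The labels of T carry a doubt. Gene by gene, the T vs. S fold changes follow those that the study's own gene list gives for ACVR2B/Fc without a tumour vs. sham, and not those it gives for tumour hosts. No gene in these counts was itself deleted or added by the design, so no single gene gave a direct check of the label. T therefore stands below for the libraries labelled T, and whether they came from untreated tumour hosts could not be settled from these files.

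Protein synthesis begins when eIF2 carries the initiator tRNA to the small ribosomal subunit, where eIF1, eIF1A, eIF3 and eIF5 assemble with it. The cap-binding complex eIF4F, made of eIF4E, eIF4G and the helicase eIF4A, brings the mRNA, and the eIF4E-binding proteins hold eIF4E back unless mTORC1 phosphorylates them. The guanine nucleotide exchange factor eIF2B recharges eIF2 for the next round and is blocked when eIF2alpha is phosphorylated. After the subunits join with the help of eIF5B, eEF1A delivers each aminoacyl-tRNA and eEF2 moves the ribosome by a codon. In adult heart and skeletal muscle eEF1A is made from Eef1a2 in addition to Eef1a1, and eEF2 is silenced by its own kinase, eEF2K. The mRNA levels reported here say nothing about phosphorylation or about the rate of translation.

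Library totals ranged from 12392222 to 19732471 counts, at which 3 counts correspond to 0.152 to 0.242 CPM (counts scaled to a common library size). Levels below are CPM scaled by edgeR's TMM factors unless RPKM is stated. The summed level of 7 cardiomyocyte genes lay between 62430 and 67828 CPM in S, between 50928 and 60690 CPM in T, and between 45838 and 62937 CPM in A + T. In this sum every T library was below every S library, but its genes went both ways in T vs. S. Of the 7, 3 had a positive and 4 a negative log2 fold change, from −0.90 to 0.38. Other cell types differed between groups as well. The summed level of 4 endothelial genes was 658 to 771 CPM in S, 388 to 488 CPM in T and 507 to 595 CPM in A + T, and that of 4 fibroblast genes was 1138 to 1356, 754 to 879 and 916 to 1301 CPM, so that in both lists every T library was below every S library. In whole tissue, fewer cells of a type and less RNA per cell cannot be told apart. Skeletal muscle genes, mostly Mybpc2, summed to 30.8 to 35.0 CPM in S, 55.1 to 70.1 CPM in T and 39.6 to 50.8 CPM in A + T, while the other genes of that list found were lower in T than in S (Actn3 with 28, 29 and 21 counts in S and 12, 7 and 5 in T, Tnnt3 with 10, 13 and 10 counts in S and 6, 3 and 4 in T). Smooth muscle genes were at 138 to 163 CPM in S, 63.1 to 113 CPM in T and 88.9 to 91.7 CPM in A + T, and macrophage genes were at 108 to 122, 110.2 to 126 and 164 to 220.1 CPM. Adipocyte genes reached 78.1 CPM in animal 12 and at most 18.4 CPM in S and 7.70 CPM in A + T. The erythroid gene Alas2 overlapped between all groups. Atrial genes summed to 3000 to 3084 CPM in S but 861 to 4554 CPM in T and 793 to 2055 CPM in A + T. The lung and airway genes Scgb1a1 and Sftpb summed to 80.5 CPM in animal 12 of T and to 1278 CPM in animal 22 of A + T, against at most 1.67 CPM in S. The part of these differences in the results below was not tested, except that counts are also given without animals 12 and 22.

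The promoters of the members were searched for the E-box CACGTG, the element bound by Myc and related factors. RefSeq (GRCm38.p6) gave a window of 250 bases before to 50 bases after the start site for 45 of the 57 members. Of these 45, 12 (26.7%) held a CACGTG, against 8.09% of the 27025 genes in the same table. That table was not limited to the genes tested here, and whether the motif bears on the changes was not tested. The motif reads the same on both strands. The stretches shown run up to 30 bases to either side of the last E-box before the start site. They were chosen after values were seen, to set the 3 members that held an E-box and were higher in T (Eef2, Eef2k and Eif4h) beside the cap-binding protein Eif4e and its scaffold Eif4g1, which also held it and did not pass the test. Capitals mark the E-box.
Eef2 (chr10:81176558-81176623, + strand): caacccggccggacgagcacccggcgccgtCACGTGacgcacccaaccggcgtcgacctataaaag
Eef2k (chr7:120842770-120842830, + strand): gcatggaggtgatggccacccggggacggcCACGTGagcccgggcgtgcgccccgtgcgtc
Eif4h (chr5:134639470-134639535, - strand): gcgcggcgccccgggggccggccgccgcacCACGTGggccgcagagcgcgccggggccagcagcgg
Eif4e (chr3:138527174-138527239, + strand): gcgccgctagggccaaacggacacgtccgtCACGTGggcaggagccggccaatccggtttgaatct
Eif4g1 (chr16:20672643-20672708, + strand): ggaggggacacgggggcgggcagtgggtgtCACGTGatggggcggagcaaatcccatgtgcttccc

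The E-box began 43 bases before the start site in Eef2, 31 in Eef2k, 96 in Eif4h, 64 in Eif4e and 54 in Eif4g1. Eif4e held another one 228 bases before its start, and Eif4g1 another one 16 bases after its start. Among the members with a window, the motif was found in 3 of the 15 that were higher in T vs. S (20%) and in 9 of the other 30 (30%). The element TGATG, any base, AA, of the type bound by ATF4, was searched on both strands. It was found in 2 of 45 members (4.44%), against 4.51% of the table. These were 1 of the 15 higher in T vs. S and 1 of the other 30. No window was found for Eif1a, Eif4ebp1, Eif4ebp3, Eif3e, Eif3h, Eif3i, Eef1d, Eef1g, Eif6, Eif2b3, Eif4e3 and Eif4g2.

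Per length of mRNA, the elongation factors stood at the top of the list in sham hearts. The mean level was 819 ± 40.8 RPKM (SD, n = 3) for Eef1a2, 602 ± 17.9 RPKM for Eef1a1 and 512 ± 20.6 RPKM for Eef2. The 3 S values of these genes do not overlap. The next was Eif1, which keeps the scanning ribosome from starting at the wrong codon, at 370.0 ± 4.34 RPKM, followed at a distance by Eif4g2, a relative of eIF4G that lacks the eIF4E site, at 174 ± 6.68 RPKM. The 12 eIF3 subunits lay between 28.6 ± 1.20 RPKM (Eif3d) and 149.6 ± 3.33 RPKM (Eif3h). The lowest were Eif2b3, the gamma subunit of eIF2B, at 2.68 ± 0.515 RPKM and Eif5a2, the minor copy of eIF5A, at 0.827 ± 0.192 RPKM. Eef1a2, Eef1a1 and Eef2 kept the first 3 ranks in T and in A + T. In T, Eef2 at 705 ± 35.0 RPKM and Eef1a1 at 689 ± 75.4 RPKM differed by less than their spread, and so did Eef1a2 and Eef1a1 in A + T.

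**Figure D1:**
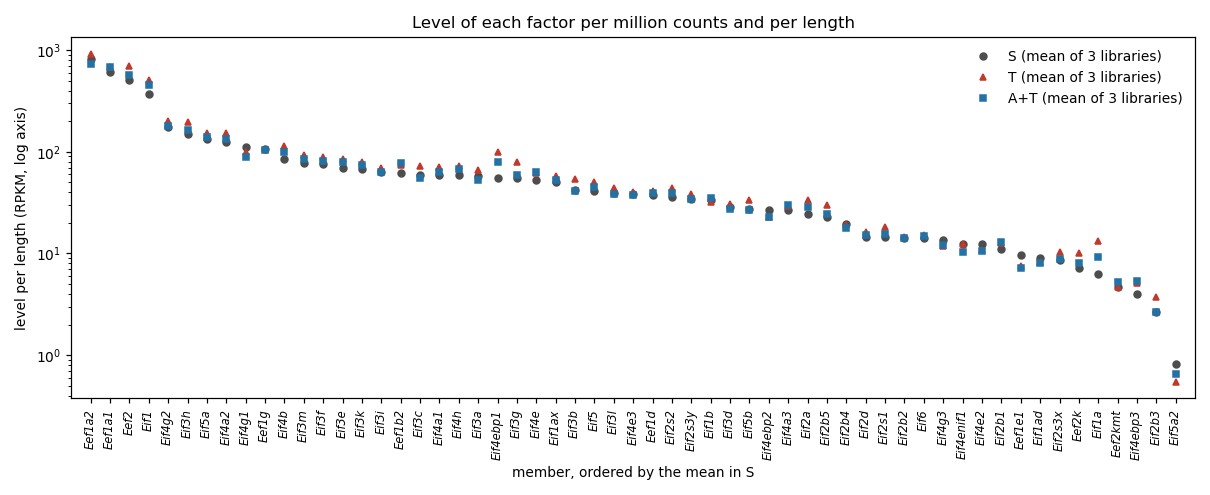
Mean level per length (RPKM, log axis) of the 57 members in S, T and A + T, ordered by the mean in S; each point is the mean of 3 libraries. The order runs from Eef1a2 at 819 RPKM to Eif5a2 at 0.827 RPKM in S, and the T points of Eif1a, Eif4ebp1, Eef2k and Eif3g stand above the S points.

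Together the 57 members took 1.17% ± 0.08 (SD, n = 3) of all counts in S. Their share was 1.36% ± 0.17 in T, and in A + T it was 1.20% ± 0.09. Rn45s, the ribosomal RNA precursor, took between 4.57% and 19.6% of a library. With its counts set aside, the members took 1.33% to 1.34% of the S libraries, 1.44% to 1.55% of the T libraries and 1.34% to 1.52% of the A + T libraries. Every T library was above every S library, and A + T overlapped with both.

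In T vs. S, the initiation and elongation factors were mostly higher in T, by small amounts. With edgeR's quasi-likelihood test and Benjamini-Hochberg adjustment over 13364 genes, 20 of the 57 members (35.1%) were higher at an adjusted P-value under 0.05, against 10.3% of all genes tested, and 1 (1.75%) was lower, against 11% of all genes. The rises reached eIF1A, the eIF4E repressor Eif4ebp1, 5 subunits of eIF3, 3 carriers of initiator tRNA, 2 subunits of eIF2B, eEF2 and its kinase. Changes below are log2 fold changes ± SE unless a fold is stated. The median log2 fold change of the members was 0.20 and that of all genes tested was −0.0038. Of the members, 46 (80.7%) had a log2 fold change above 0, against 49.6% of all genes. In 35 members (61.4%) every T library was above every S library, which held for 21.1% of all genes, and in 2 members (3.51%) every T library was below, against 21.5% of all genes. At the limits the study set (at least 1.5-fold, with P under 0.05 before adjustment), only Eif1a and Eif4ebp1 were higher (3.51% of members, 5.2% of all genes) and only Eif5a2 was lower (1.75%, against 9.01%).

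The count of 20 of the 57 members was lower when a library was left out of one of these groups. It was 11, 13 and 10 without animals 2, 3 and 5 of S and 11 when animal 11 of T was left out, while 6.83%, 6.65%, 6.67% and 6.52% of all genes were higher. It was 26 without animals 12 and 22, with 13.4% of all genes higher. With library sizes in place of TMM factors, 4 of the 57 members and 4.38% of all genes were higher.

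**Figure D2:**
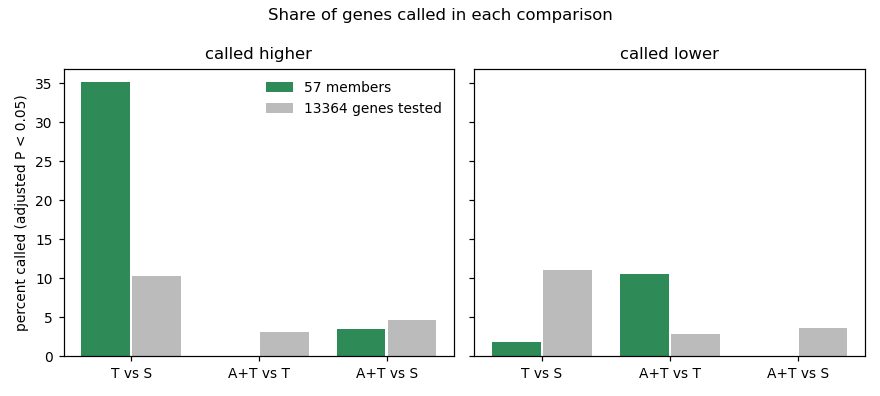
Percent of the 57 members (green bars) and of the 13364 genes tested (grey bars) that were higher (left) or lower (right) at an adjusted P-value under 0.05, for each of the 3 comparisons. The tallest member bars are 35.1% higher in T vs. S, beside 10.3% of all genes, and 10.5% lower in A + T vs. T, beside 2.79% of all genes.

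Among the factors that prepare the small subunit, Eif1a (chr18:46597701-46616456) changed most. It encodes eIF1A, which with eIF1 holds the scanning subunit open. Its level was 16.4, 18.3 and 19.2 CPM in S, 37.5, 37.2 and 40.9 CPM in T and 24.7, 24.7 and 30.9 CPM in A + T. All 3 T libraries were above all A + T libraries, and these were above all S libraries. T was 2.14-fold of S (log2 fold change 1.10 ± 0.11, adjusted P = 0.000195). Eif1a has a close X-linked copy, Eif1ax, whose reads could be confused with it, and the log2 fold change of Eif1ax in T vs. S was 0.19 ± 0.11 (adjusted P = 0.225). Eif1 rose in T by 0.44 ± 0.09 (adjusted P = 0.00643), from 451 ± 5.23 to 614 ± 43.5 CPM (SD, n = 3). Eif1b and Eif1ad, the remaining genes of this list of 5, gave −0.09 ± 0.10 and −0.13 ± 0.09.

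All 6 genes for eIF2 and other carriers of initiator tRNA had a positive log2 fold change in T vs. S, with a median of 0.28, and 3 passed the test. Eif2s1 and Eif2s2 encode the alpha and beta subunits of eIF2. Eif2s1 rose by 0.33 ± 0.08 (adjusted P = 0.0153) and Eif2s2 by 0.29 ± 0.09 (adjusted P = 0.0358). Their calls held in 7 and 3 of the 9 fits that left out a library. Eif2a, a carrier that acts apart from eIF2 and is distinct from its alpha subunit, had the largest change of the list, 0.43 ± 0.10 (adjusted P = 0.0125). The gamma subunit has an X-linked and a Y-linked gene, which are nearly the same in sequence, and Eif2s3x gave 0.28 ± 0.09 (adjusted P = 0.0579).

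Of the 5 subunits of eIF2B, 2 rose in T, Eif2b5 and Eif2b3. Eif2b5 (chr16:20498817-20509323) encodes the catalytic epsilon subunit. Its level was 58.8, 57.8 and 58.7 CPM in S, 79.8, 79.1 and 71.5 CPM in T and 61.2, 63.7 and 65.3 CPM in A + T, with no overlap between any pair of groups. The T vs. S log2 fold change was 0.40 ± 0.07 (adjusted P = 0.00363). The gamma subunit Eif2b3 gave 0.49 ± 0.16, close to the threshold (adjusted P = 0.0488), and kept the call in 3 of the 9 fits that left out a library. Eif2b1, Eif2b2 and Eif2b4 lay between −0.02 and 0.18 and were not called.

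The eIF3 complex bridges the mRNA and the small subunit. All 12 of its measured subunits had a positive log2 fold change in T vs. S, from 0.11 (Eif3d) to 0.53 (Eif3g), with a median of 0.25, and 5 passed the test. Eif3g (chr9:20894349-20898623), an RNA-binding subunit, was at 61.8, 59.8 and 54.7 CPM in S, 90.5, 80.4 and 84.5 CPM in T and 60.7, 61.3 and 70.1 CPM in A + T. Its T libraries were above all others, and S and A + T overlapped. Its log2 fold change was 0.53 ± 0.09 (adjusted P = 0.00224).

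Eif3b (chr5:140419328-140443360) and Eif3c (chr7:126546455-126566411) belong to the core of the complex. Eif3b was at 129.9, 126 and 120.2 CPM in S, 166, 163 and 155 CPM in T and 117, 122 and 132 CPM in A + T. Eif3c was at 178, 178 and 160.1 CPM in S, 223, 196 and 203 CPM in T and 159, 163 and 164 CPM in A + T. In both genes the T libraries were above all others, while S and A + T overlapped. The T vs. S change was 0.36 ± 0.08 for Eif3b (adjusted P = 0.00744) and 0.27 ± 0.08 for Eif3c (adjusted P = 0.0362). Eif3h rose by 0.40 ± 0.10 (adjusted P = 0.0177) and Eif3e by 0.29 ± 0.09 (adjusted P = 0.0484), both subunits of the PCI-MPN part. The call of Eif3c and of Eif3e held in 3 of the 9 fits that left out a library, that of Eif3h in 5, and those of Eif3g and Eif3b in all 9.

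The genes listed for the cap-binding complex, its relatives and its helicase cofactors moved unevenly. Of these 10 genes, 3 rose in T, and the 3 did not include the cap-binding protein or its main scaffold. Eif4b and Eif4h, which stimulate the helicase, rose by 0.43 ± 0.08 (adjusted P = 0.00472) and 0.29 ± 0.08 (adjusted P = 0.0327). The helicase copy Eif4a2 rose by 0.30 ± 0.08 (adjusted P = 0.0218), whereas Eif4a1 gave 0.25 ± 0.11 (adjusted P = 0.139). Eif4e gave 0.23 ± 0.10 (adjusted P = 0.133). The scaffold Eif4g1 gave −0.15 ± 0.12 (adjusted P = 0.422), with a 95% interval of −0.42 to 0.12, from 609 ± 63.3 CPM in S to 549 ± 30.0 CPM in T. Eif4g1 was thus one of the 11 members with a negative value. Eif4a3, a helicase of the exon junction complex that shares the family name, gave 0.12 ± 0.07 (adjusted P = 0.239).

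The repressors of eIF4E went in both directions. Eif4ebp1 (chr8:27260329-27276674) encodes 4E-BP1, which competes with eIF4G for eIF4E. It was at 53.4, 56.2 and 52.9 CPM in S, 106, 104 and 84.9 CPM in T and 66.2, 75.7 and 92.2 CPM in A + T. All T and all A + T libraries were above all S libraries, and T and A + T overlapped. T was 1.81-fold of S (log2 fold change 0.86 ± 0.12, adjusted P = 0.0013), and the call held in all 9 fits that left out a library.

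Eif4ebp2, which encodes the related 4E-BP2, was at 50.7, 46.5 and 47.7 CPM in S, 41.7, 41.0 and 39.7 CPM in T and 37.9, 42.9 and 41.1 CPM in A + T. Every T and every A + T library was below every S library. It was the only member to fall in T (−0.24 ± 0.08, adjusted P = 0.0422), and the call was lost without any single S or T library, with DESeq2 and without animals 12 and 22. Per length, the mean level was 55.0 ± 1.85 RPKM for Eif4ebp1 and 26.9 ± 1.19 RPKM for Eif4ebp2 in S, and 99.6 ± 11.6 and 22.8 ± 0.587 RPKM in T. Eif4ebp3 had 3.91 to 7.39 CPM in all libraries and a log2 fold change of 0.39 ± 0.19 (adjusted P = 0.179), with S and T overlapping, while all A + T libraries (5.10 to 7.39 CPM) were above all S libraries (3.91 to 4.99 CPM). Eif4enif1, which carries eIF4E into the nucleus, gave −0.01 ± 0.08.

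**Figure D3:**
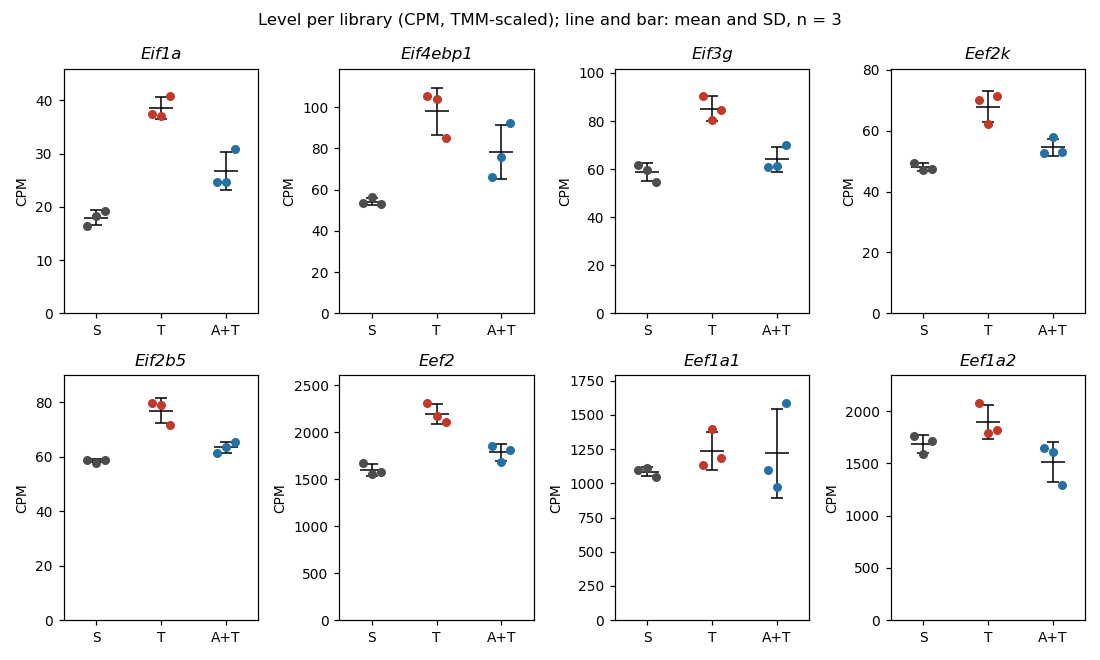
Level in each of the 9 libraries (CPM, vertical axes from 0) of 8 members in S, T and A + T, with the mean and SD of 3 libraries. For Eif1a the 3 groups are apart, from 16.4 to 19.2 CPM in S, 24.7 to 30.9 CPM in A + T and 37.2 to 40.9 CPM in T, whereas for Eef1a1 the A + T libraries span the range of the other groups and animal 22 is highest.

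At the last steps of initiation, Eif5 and Eif5b rose in T. Eif5 triggers GTP hydrolysis by eIF2, and it rose by 0.29 ± 0.09 (adjusted P = 0.0382). Eif5b, the GTPase that joins the subunits, rose by 0.31 ± 0.09 (adjusted P = 0.0292). The calls of Eif5 and Eif5b held in 4 and 6 of the 9 fits that left out a library. Eif6, which keeps the large subunit free until it is needed, gave 0.09 ± 0.09 (adjusted P = 0.509). For eIF5A, which relieves stalled ribosomes, Eif5a gave 0.20 ± 0.08 (adjusted P = 0.0912) and Eif5a2 −0.61 ± 0.22 (adjusted P = 0.072). Eif5a2 was low in every library, at 2.29 to 5.14 CPM.

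Among the elongation factors, Eef2 rose in T and none of the 6 genes for eEF1A and its exchange complex was called by edgeR or DESeq2, with 1 at an unadjusted P-value under 0.05. Eef2 (chr10:81176631-81182498) was at 1673, 1551 and 1572 CPM in S, 2313, 2173 and 2105 CPM in T and 1855, 1683 and 1814 CPM in A + T. No S library reached any A + T library, and no A + T library reached any T library. The T vs. S log2 fold change was 0.46 ± 0.09 (adjusted P = 0.00451).

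Eef2k (chr7:120842831-120907450), whose product phosphorylates and stops eEF2, rose by a like amount. It was at 49.5, 47.2 and 47.5 CPM in S, 70.0, 62.1 and 71.5 CPM in T and 52.8, 57.9 and 53.0 CPM in A + T, so that the 3 groups did not overlap. Its log2 fold change was 0.50 ± 0.08 (adjusted P = 0.00203), and the methyltransferase gene Eef2kmt gave 0.00 ± 0.13.

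Eef1a1 (chr9:78478449-78489151), the copy used in most tissues, was at 1095, 1109.8 and 1049 CPM in S, 1138, 1396 and 1183 CPM in T and 1099.8, 969.9 and 1589.7 CPM in A + T. Eef1a2 (chr2:181147653-181157014), the copy of muscle and neurons, was at 1759, 1593 and 1711 CPM in S, 2080.2, 1787 and 1823 CPM in T and 1647, 1605 and 1296 CPM in A + T. Every T library was above every S library for both genes, yet neither passed the test (0.19 ± 0.16, adjusted P = 0.436, for Eef1a1 and 0.17 ± 0.11, adjusted P = 0.311, for Eef1a2). In A + T, animal 22 had the highest Eef1a1 and the lowest Eef1a2 of all 9 libraries. The ratio of Eef1a2 to Eef1a1 per length was 1.25 to 1.43 in S, 1.12 to 1.60 in T and 1.31, 1.45 and 0.713 in animals 20, 21 and 22 of A + T. Animals 12 and 22, with the lowest ratio of their groups, were those with the most counts of the airway gene Scgb1a1 (1345 and 17508, against at most 27 elsewhere). The part of lung RNA in the ratio was not tested. Eef1a1 has many processed pseudogenes, so uniquely mapped counts may miss some of its reads.

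The exchange factors of eEF1A, Eef1b2, Eef1d and Eef1g, gave log2 fold changes of 0.26, 0.13 and −0.0011. Eef1e1, which encodes a scaffold protein of the tRNA synthetase complex, gave −0.37 ± 0.17 (adjusted P = 0.142). Several members belong to the mRNAs with a 5′-terminal oligopyrimidine tract, whose translation depends on mTORC1. Of 10 such members listed, 4 rose in T (Eef2, Eif3e, Eif3h and Eif4b), and the median log2 fold change of the 10 was 0.24, near the 0.20 of all members.

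**Figure D4:**
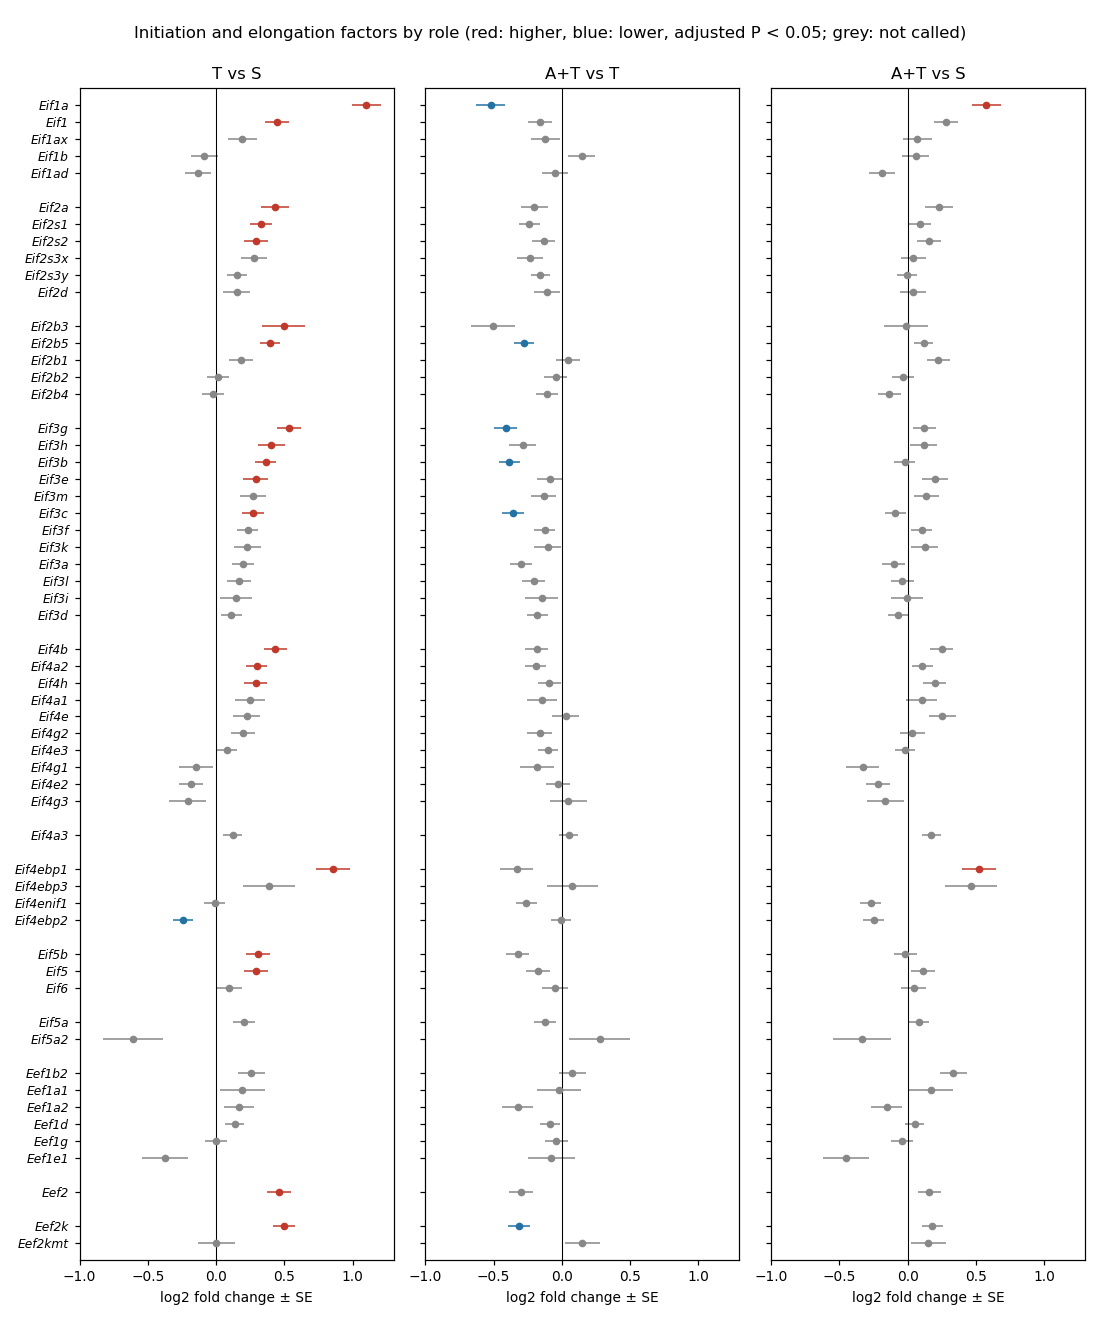
Log2 fold change with SE (edgeR, n = 3 per group) of each of the 57 members, with a panel for each comparison, arranged in blocks by role; red points were higher and blue points lower at an adjusted P-value under 0.05, and grey points were not called. In T vs. S all 12 eIF3 subunits and all 6 genes for eIF2 and other carriers lie to the right of 0, and in A + T vs. T the same blocks lie to its left.

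In A + T vs. T, members were lower where they were called. No member was higher by edgeR or DESeq2 (3.09% of all genes were in edgeR), and 6 of 57 (10.5%) were lower, against 2.79% of all genes. At an unadjusted P-value under 0.05, 21 members differed in either direction (36.8%, against 22.4% of all genes). The median log2 fold change was −0.13, that of all genes was 0.0098, and 9 members (15.8%) were above 0, against 51.7% of all genes. In 22 members (38.6%) every A + T library was below every T library, which held for 13.1% of all genes. The T libraries enter this comparison and T vs. S with opposite sign, so their counts are not independent of each other. At the study's limits no member passed in either direction, while 6.5% of all genes were higher and 1.61% lower.

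The 6 members that fell were Eif1a, 3 subunits of eIF3, Eif2b5 and Eef2k. Eif1a had the largest difference, −0.52 ± 0.11 (adjusted P = 0.0226), or 1.44-fold lower in A + T. For the eIF3 subunits the log2 fold change was −0.41 ± 0.09 in Eif3g (adjusted P = 0.0249), −0.38 ± 0.08 in Eif3b (adjusted P = 0.0197) and −0.36 ± 0.08 in Eif3c (adjusted P = 0.0299). Eef2k gave −0.31 ± 0.08 (adjusted P = 0.044) and Eif2b5 −0.28 ± 0.07 (adjusted P = 0.0475). In the 9 fits that left out a library, the call held in 5 each for Eif1a, Eif3g and Eif3b. It held in 4 for Eif3c, 2 for Eif2b5 and 1 for Eef2k. All 12 eIF3 subunits and all 6 genes for eIF2 and other carriers had negative values, with medians of −0.19 and −0.18.

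Core members that did not pass included Eef2 (−0.30 ± 0.09, adjusted P = 0.0675), Eif2s1 (−0.24 ± 0.08, adjusted P = 0.107), Eef1a2 (−0.32 ± 0.11, adjusted P = 0.119) and Eif4ebp1 (−0.33 ± 0.12, adjusted P = 0.144). Eif4e gave 0.03 ± 0.10, with a 95% interval of −0.19 to 0.25. Eif4g1 gave −0.18 ± 0.12, Eef1a1 −0.02 ± 0.16, Eif4ebp2 −0.01 ± 0.08 and Eif6 −0.05 ± 0.09. Over the fits that left out a library, Eef1a1 ranged from −0.26 to 0.12. None of the 6 calls was left when animal 11 of T, animal 20 or animal 21 of A + T was left out, or when only the 6 libraries of these groups were fitted, with 0.569%, 1.11%, 1.47% and 0.846% of all genes lower in these fits. Without animal 15 (T) 2 members were lower (1.92% of all genes), and without animal 3 (S) 3 were (1.72% of all genes). DESeq2 called 10 lower (4.58% of all genes), and 7 were lower without animals 12 and 22 (3.28% of all genes).

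In A + T vs. S, few members differed. The 2 higher members, Eif1a and Eif4ebp1, were 3.51% of the 57, against 4.67% of all genes, and none was lower (3.64% of all genes). At an unadjusted P-value under 0.05, 17 members differed (29.8%, against 26.1% of all genes), and DESeq2 called 5 higher and 1 lower (over all 13364 genes, 818 and 696). The median log2 fold change was 0.07, against 0.0034 for all genes. At the study's limits no member passed, while 5.82% of all genes were higher and 3.09% lower. In 17 members (29.8%) every A + T library was above every S library, against 16% of all genes, and in 6 (10.5%) below, against 16.5%. Eif1a was 1.49-fold of S (0.58 ± 0.11, adjusted P = 0.0129) and Eif4ebp1 1.44-fold (0.53 ± 0.12, adjusted P = 0.03). Both calls were lost without animal 2 or animal 3 of S. That of Eif4ebp1 was also lost without animal 5 of S and without animals 21 or 22 of A + T.

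The next lowest adjusted P-values in A + T vs. S belonged to Eif4enif1, Eef1b2 and Eif4ebp2, which did not pass. Eif4enif1 was at 55.8, 48.3 and 54.3 CPM in S, 53.1, 50.5 and 53.5 CPM in T and 43.4, 45.1 and 42.8 CPM in A + T, with all A + T libraries below all others (−0.27 ± 0.08 vs. S, adjusted P = 0.0536). Eef1b2, the exchange factor of eEF1A, was at 119, 123 and 121 CPM in S, 143, 135 and 156 CPM in T and 149, 134 and 173 CPM in A + T, with all A + T libraries above all S libraries (0.33 ± 0.10, adjusted P = 0.065). Eif4ebp2 gave −0.25 ± 0.07 (adjusted P = 0.0667). The members called in T vs. S with the 3 highest levels per length stood in A + T vs. S at 0.16 ± 0.09 for Eef2, 0.28 ± 0.09 for Eif1 and 0.12 ± 0.10 for Eif3h.

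Genes that regulate or complete translation were taken from 7 lists by function, whose 52 genes were all tested. Of the eIF2alpha kinases and phosphatase subunits, 1 of 6 rose in T vs. S, where 10.3% of all genes were higher and 11% lower. Lists this short are given by their counts, and nothing is read from them against those shares. The 1 gene was Eif2ak2, the interferon-induced kinase PKR, whose level was 28.8 ± 1.04 CPM in S, 54.6 ± 1.07 CPM in T and 41.8 ± 4.85 CPM in A + T (SD, n = 3). Its log2 fold change was 0.92 ± 0.09 in T vs. S (adjusted P = 0.000184), −0.38 ± 0.09 in A + T vs. T (adjusted P = 0.0338) and 0.54 ± 0.09 in A + T vs. S (adjusted P = 0.00816).

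Of 15 genes of mTORC1 and eIF4E control, 2 rose in T vs. S (10.3% of all genes did), both kinases. Mknk2, which phosphorylates eIF4E, rose by 0.79 ± 0.11 (adjusted P = 0.0013), and Rps6kb1, the S6 kinase, by 0.38 ± 0.07 (adjusted P = 0.00318). Both were lower in A + T vs. T, with log2 fold changes of −0.53 ± 0.11 (adjusted P = 0.0265) and −0.26 ± 0.07 (adjusted P = 0.0443). Mtor itself gave 0.04 ± 0.13 in T vs. S (adjusted P = 0.865).

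Paip1, a partner of the poly(A)-binding protein, Etf1, the release factor that reads stop codons, and Denr, a re-initiation factor, rose in T vs. S by 0.24 ± 0.07, 0.45 ± 0.07 and 0.31 ± 0.07 (adjusted P = 0.0253, 0.00173 and 0.0147). They were 1 of 5, 1 of 6 and 1 of 3 genes of their lists, again beside 10.3% of all genes. Paip1 and Etf1 were lower in A + T vs. T, with log2 fold changes of −0.29 ± 0.07 and −0.40 ± 0.07 (adjusted P = 0.0307 and 0.012). None of the 8 enzymes that make hypusine on eIF5A or diphthamide on eEF2 was called in any comparison by edgeR or DESeq2, and 1 had an unadjusted P-value under 0.05, in A + T vs. S.

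Of 9 genes for factors of mitochondrial translation, 7 had a negative log2 fold change in T vs. S, with a median of −0.21, and 3 fell, beside 11% of all genes, while none rose. The exchange factor Tsfm gave −0.39 ± 0.12 (adjusted P = 0.0424), the initiation factor Mtif2 −0.40 ± 0.11 (adjusted P = 0.0309) and the release factor Mtrf1l −0.51 ± 0.15 (adjusted P = 0.0362). None of the 9 was called by edgeR or DESeq2 in either comparison with A + T, where 0 (vs. T) and 1 (vs. S) had an unadjusted P-value under 0.05. The difference between the cytosolic and the mitochondrial factors was not tested.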

How the data were processed

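Heart RNA of 9 male NSG mice was sequenced, with 3 libraries each of S, T and A + T, grouped by the sample labels. The members and the lists of roles, pathways and cell types were chosen with earlier results of these data known. Per the study's methods, the authors aligned the reads to mm10 with STAR, counted uniquely mapped read pairs on RefSeq genes with strand by featureCounts. The deposited counts per gene are raw. Versions are not given in the sources used here. The authors also deposited log2 normalized values. For each gene these differed from log2 CPM by a constant (median SD over libraries 1.66e-05), as RPKM with a prior count of 2 would, and 2 to their power is given here as RPKM. Blank rows of the files, 3443 in number, were not used.

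A gene was dropped where over 4 of 9 libraries lay below 0.5 CPM (526 genes), and 13364 were tested by the quasi-likelihood F test of edgeR 4.0.16 under R 4.3.3, with TMM factors, the 9 libraries fitted together and Benjamini-Hochberg adjustment over all genes. A member was called at an adjusted P-value under 0.05. Standard errors were taken as the absolute log2 fold change divided by the root of F, and intervals are at 95%. The steps were tested on simulated data. Alternatives were DESeq2 1.42.0, limma-voom and limma 3.58.1 on the deposited log2 values, other scalings and filters, and each library left out in turn. Leaving out animals 12 and 22 together was added after seeing the data. No pair of libraries within a group was a repeat of the same library (chi-square per gene at least 7.63). The reads carried no molecular identifiers, so limits from counts cover counting error only.

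Values are given for every member called in a comparison, for 13 core members whatever their values, and for the member of each role with the largest change in T vs. S. Values per library are given for members called past 1.5-fold, for the 5 lowest adjusted P-values of each comparison, and for Eef1a1, Eef1a2, Eef2 and Eif4ebp1. Other members named were chosen after their values were seen. The promoter search was planned for members past 1.5-fold, Eif1a and Eif4ebp1, for which no window was found, and was widened to all members afterwards. Coordinates of genes come from GENCODE M21 on GRCm38, where all 57 members were found by symbol. Figures were drawn with matplotlib 3.10.9, and the promoter search used pandas 2.3.3 (Python 3.11.15).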

Additional observations from a re-analysis of the deposited data

How the results depend on the processing

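The members' median log2 fold change kept its sign in every alternative run, in each of the 3 comparisons. Members called higher in T vs. S were 20 (beside 10.3% of all genes), and 4 with library size only (4.38%). They were 2 at the study's thresholds (5.2%), and 10 to 28 when a library was left out (6.52% to 14.4%). The 1 lower member (beside 11% of all genes) was lost with DESeq2, with library size only and without animals 12 and 22 (0 each). In these fits 11%, 7.86% and 13.1% of all genes were lower. At an adjusted P-value under 0.1, 2 members were lower, and 0 to 1 when a library was left out (6.61% to 13.9% of all genes). Members called lower in A + T vs. T were 6 (beside 2.79% of all genes), and 10 with DESeq2 (4.58%). They were 0 with library size only (0.928%), with only the groups compared (0.846%) and at the study's thresholds (1.61%). At an adjusted P-value under 0.1 they were 11, and 0 to 7 when a library was left out (0.569% to 3.7%). Members called higher in A + T vs. S were 2 (beside 4.67% of all genes), and 5 with DESeq2 (6.12%). They were 0 with library size only (2.42%) and at the study's thresholds (5.82%). At an adjusted P-value under 0.1 they were 5, and 0 to 2 when a library was left out (1.23% to 4.74%). Members called lower there were 0, and 1 with DESeq2 and 2 at an adjusted P-value under 0.1. The cause of these changes was not tested, except that fits without a library have fewer samples. The limma-voom, RLE, upper-quartile and filter alternatives, leaving out Rn45s, and the deposited log2 values stayed within 1.5 times of each count. Over the named members, 1012 of 1180 recomputed values kept their direction and their side of the threshold, 144 lost the call, 8 gained it and 16 changed sign without a call. No paired analysis was possible because the labels give animal numbers that are not shared between groups.

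With 3 libraries per group and fold changes mostly under 1.4, calls near the threshold moved with single libraries. The p-values set the difference between groups against the spread between animals within groups. That spread was estimated from all 9 libraries fitted together, so the A + T libraries also enter the T vs. S tests. The sample labels used here give no sequencing run or batch. Reads shared by close copies (Eif1a and Eif1ax, Eif2s3x and Eif2s3y, Eef1a1 and its pseudogenes) could not be separated further. The mRNA level does not give protein amount, phosphorylation or translation rate.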
